A study of Mus musculus with 2 samples.

Results

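The genes described here code for the subunits and regulators of the proteasome, chosen as every gene with a protein-coding transcript whose symbol begins with Psma to Psmg followed by a number. The rule found 50 genes among the 55536 genes of the deposited tables. Their RNA was measured by total RNA sequencing of gastrocnemius, the large calf muscle, in adult female mice aged 8 to 10 months. The animals came, per the labels, from The Jackson Laboratory and from a cross of 5xFAD with CAST. 5xFAD is a transgenic model of Alzheimer's disease whose human transgenes are driven by a neuronal Thy1 promoter, and CAST is a wild-derived inbred strain. Which alleles each animal carried is not given in the labels, and the labels number the libraries as biological replicates 1 and 2 but carry 1 donor identifier for both, so whether they came from separate animals is not settled. There are 2 libraries, made from 300 ng of RNA each, and they form 1 group with no control, so no test between groups is possible and every mean below is given with the SD over n = 2 libraries.

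The proteasome is the barrel-shaped protease that degrades proteins tagged with ubiquitin. Its core particle stacks outer rings of alpha subunits, which gate entry, on inner rings of beta subunits, of which Psmb5, Psmb6 and Psmb7 carry the catalytic sites. A regulatory particle binds the end of the core, with a ring of Psmc ATPases that unfold the substrate and Psmd subunits that recognise and remove ubiquitin. Dedicated chaperones assemble both particles, and other activators (the Psme genes) can take the place of the regulatory particle. In skeletal muscle this pathway is known for the breakdown of contractile proteins during atrophy.

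Library 1 held 35423706 expected counts over genes and library 2 held 34367627. The 50 proteasome genes together held 85783 of them in library 1 and 83444 in library 2. No count in a library still allows up to 3 counts, or 0.0847 CPM of library 1 and 0.0873 CPM of library 2 (counts scaled to the library total), a limit that covers counting error only. Levels are those of the first of a pair of deposited quantifications, made from alignments to transcripts, unless the second, made straight from the reads, is named. Fibre genes were abundant in both libraries, with all 6 above the highest proteasome gene (Acta1 at 17980 ± 1441 TPM, a share of the library's transcripts after correction for their length). None of 8 T, B and NK cell markers reached 1 TPM, and their summed level was 0.12 TPM in library 1 and 0.06 in library 2, with Cd3g, Cd8a and Ncr1 at 0 counts in both. Macrophage markers were at 36.1 and 33.4 TPM in sum, with 6 of 10 at 1 TPM or more in both libraries, as were 8 of 8 endothelial and 6 of 6 fibroblast markers. In bulk tissue, fewer cells of a type and less RNA per cell cannot be told apart.

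All 31 subunits of the standard core and the regulatory particle were expressed in this muscle, while the immunoproteasome subunits and the assembly chaperones were far lower. Of the 50 genes, 45 reached 1 TPM in both libraries, against 44.5% of the 22015 nuclear protein-coding genes. The 5 that did not were the tissue-specific core subunits Psma8 and Psmb11, the immunoproteasome subunit Psmb9, the retrogene Psme2b and Psmc3ip. Psmc3ip is a meiotic recombination cofactor and not a subunit of the proteasome. All 50 together held 0.503 ± 0.00945% of nuclear protein-coding TPM. Of the 45 detected proteasome genes, 36 lay above the median of all detected nuclear protein-coding genes in library 1, which was 7.51 TPM, and 37 in library 2, where it was 8.38 TPM. Those below it in both were Psmb8, Psmf1 and 6 of the 7 assembly chaperones, and Psmg2, the other chaperone, was below it in library 1. Ranked by TPM, the genes stood in nearly the same order in both libraries (Spearman's rho 0.993 over 50 genes, which share the libraries and are not replicates).

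**Figure D1:**
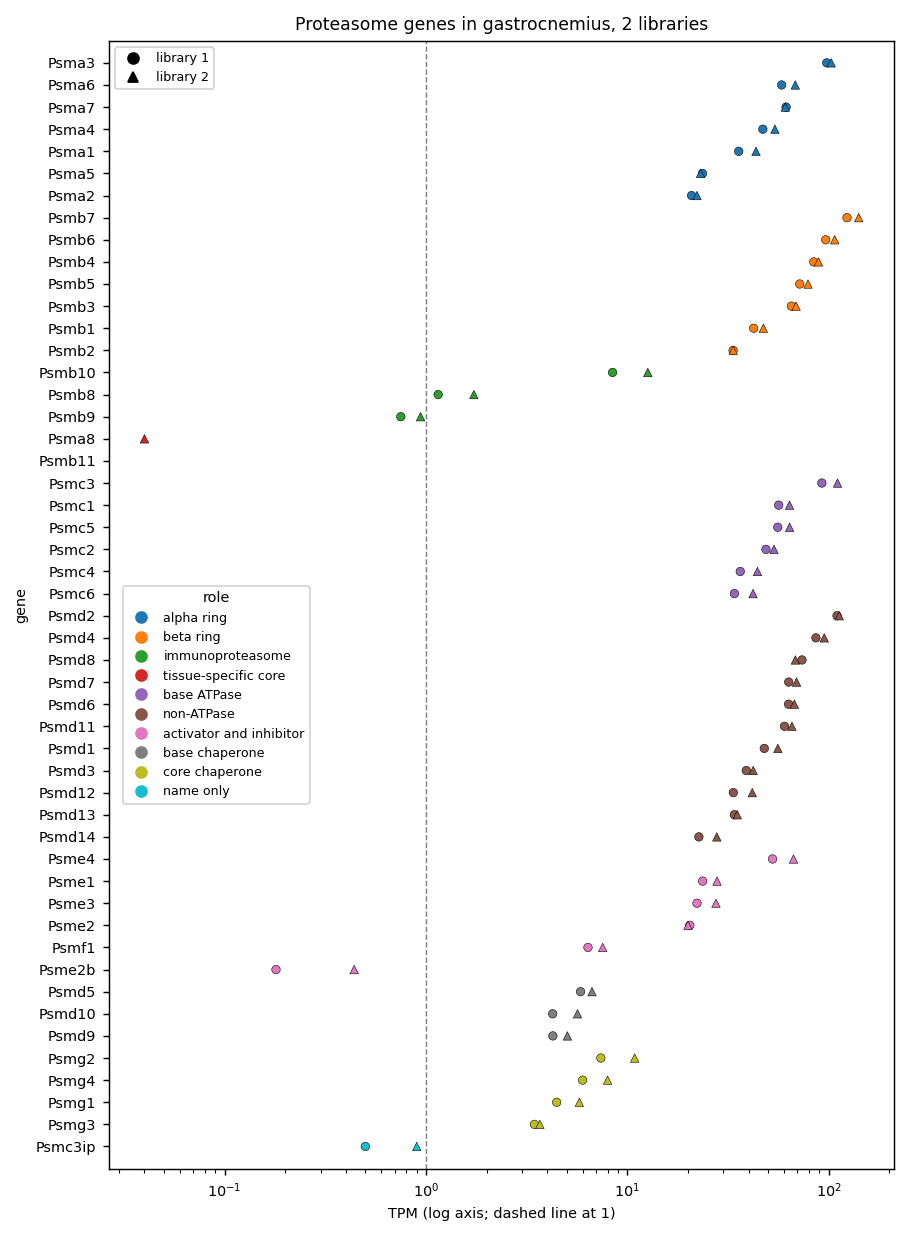
TPM (log axis) of the proteasome genes by role, with circles for library 1 and triangles for library 2; values of 0 are not drawn. Subunits lie between 20.86 and 140.99 TPM in the standard core and 22.67 and 112.89 TPM in the regulatory particle, and the assembly chaperones between 3.46 and 10.88 TPM.

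The alpha ring subunits, which form the gate of the core, had a median level of 50.6 ± 4.94 TPM. Psma3 led with 97.85 TPM in library 1 and 102.97 in library 2. The lowest was Psma2, with 20.86 and 22.18 TPM, and Psma5 was close to it with 23.63 and 23.11. Between the ends, Psma1 had 35.76 and 43.57 TPM, Psma4 47.12 and 54.10, Psma6 58.42 and 68.29 and Psma7 61.46 and 60.92. The highest alpha subunit was thus 4.67-fold above the lowest, and 8.34-fold by the second quantifier, although the assembled ring holds each of these subunits once. These folds count all transcripts, coding or not. In coding transcripts alone, Psma3 had 65.98 and 58.93 TPM by the first quantifier and 40.71 and 41.23 by the second. It was then below Psma6 (51.57 and 59.51) and Psma7 (57.58 and 59.06) in both libraries by the second quantifier, and in library 2 by the first.

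The beta ring was higher than the alpha ring in both libraries, with a median of 75.4 ± 5.04 TPM and a summed level of 541.8 ± 34.3 TPM beside 360.1 ± 21.2 TPM for the alpha ring. Psmb7, the trypsin-like catalytic subunit (chromosome 2, 38588036 to 38644087, mm10), was the highest of all 50 genes at 123.38 TPM in library 1 and 140.99 in library 2. Psmb6, the caspase-like catalytic subunit, had 96.70 and 107.12 TPM, and Psmb5, the chymotrypsin-like one and the main target of proteasome inhibitor drugs, had 71.84 and 78.97. Of the 4 subunits without a catalytic site, Psmb4 reached into the range of these 3. Psmb4 had 84.36 and 89.04 TPM, between Psmb5 and Psmb6, and Psmb3 had 65.35 and 68.92. By the second quantifier Psmb4 had 100.3 and 108.1 TPM, above Psmb6 with 76.61 and 89.79. Psmb1 with 42.43 and 47.40 TPM and Psmb2 with 33.53 and 33.58 were the lowest of the ring. In coding transcripts alone, Psmb4 had 50.86 and 60.49 TPM by the first quantifier and 42.15 and 52.03 by the second. It was then below Psmb5, which had 71.84 and 78.98 TPM by the first and 56.68 and 67.06 by the second. Psmb3 was also above Psmb4 on this measure, with 64.63 and 67.84 TPM by the first and 58.07 and 62.92 by the second.

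Over the 14 standard core genes the median was 62.3 ± 3.30 TPM. Their spread, the SD of log2 TPM over the genes, was 0.790 ± 0.0179, and Psmb7 exceeded Psma2 by 6.14-fold. The SD between libraries was at most 12.5 TPM for any core gene, that of Psmb7.

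The immunoproteasome subunits, which replace the catalytic beta subunits in immune cells and after interferon, were low in this muscle. Psmb8 (chromosome 17, 34197721 to 34201454), which replaces Psmb5, rested on 36 counts in library 1 and 44 in library 2, for levels of 1.15 and 1.73 TPM. Psmb9 (chromosome 17, 34181987 to 34187764), which replaces Psmb6, rested on 17 and 24 counts and had 0.75 and 0.94 TPM. Psmb10 (chromosome 8, 105935735 to 105938444), which replaces Psmb7, rested on 138 and 163 counts and had 8.45 and 12.64 TPM. All 3 were lower than their standard partner in both libraries. Psmb8 held 1.86 ± 0.402% of the summed TPM of Psmb8 and Psmb5, and Psmb5 was 62.5-fold higher in library 1 and 45.7-fold in library 2. Psmb9 held 0.820 ± 0.0709% of its pair with Psmb6, which was 129-fold and 114-fold higher. The third pair was less uneven, with Psmb10 at 7.32 ± 1.29% and Psmb7 14.6-fold and 11.2-fold higher. Counting coding transcripts of the first quantifier alone, the Psmb8 share was 0.667 ± 0.335% and the Psmb9 share 0.483 ± 0.00319%. Coding transcripts of the second quantifier gave 1.865 ± 1.11% for Psmb8 and 0.851 ± 0.103% for Psmb9, close to the shares from all transcripts of the first.

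By expected counts, with no correction for length, Psmb8 held 2.04% of its pair in library 1 (exact Clopper-Pearson 95% interval 1.43 to 2.81%) and 2.64% in library 2 (1.92 to 3.53%). Psmb9 held 0.831% (0.485 to 1.33%) and 1.22% (0.784 to 1.81%). Psmb10 held 3.34% (2.81 to 3.93%) and 3.97% (3.39 to 4.61%). The intervals of the 2 libraries overlapped in each pair, and the difference between libraries was not tested.

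**Figure D2:**
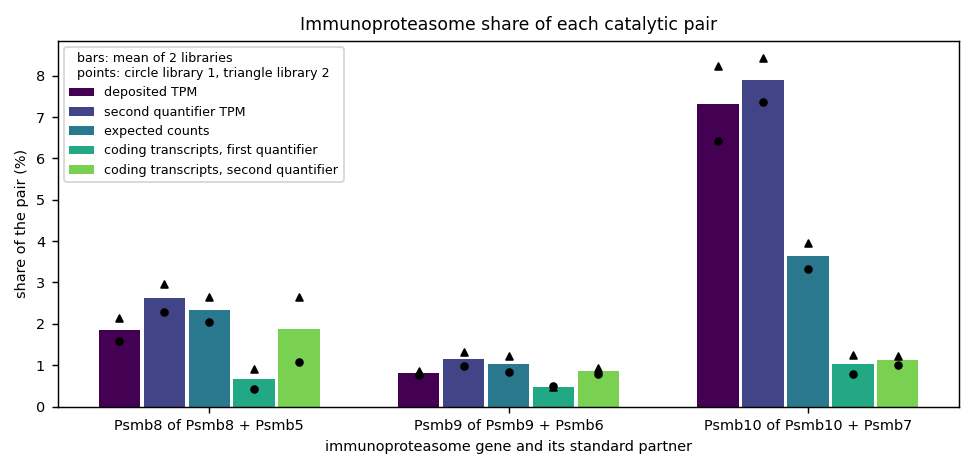
Share of each immunoproteasome gene in the summed level of itself and its standard partner (percent), by 5 ways of measuring it; bars are means of 2 libraries, circles library 1 and triangles library 2. The Psmb10 share lies at 7.32% by deposited TPM and at 1.02% and 1.12% when only coding transcripts are counted.

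By both quantifiers, most Psmb10 TPM was assigned to transcripts that do not code for the subunit. Psmb10-201, its 1 protein-coding transcript with 8 exons and 1311 bases, held 11.6% of the gene's TPM in library 1 and 14% in library 2 by the first quantifier, and 12.9% and 13.4% by the second. Most of the rest was assigned to Psmb10-203, Psmb10-205 and Psmb10-207, which are annotated as non-coding, measure 426, 554 and 646 bases and start 1406 to 1419 genomic bases downstream of the full-length start. These 3 together held 88.4% and 86.0% of the gene's TPM by the first quantifier, and 83.6% and 80.8% by the second. The split among the 3 was not stable, since Psmb10-203 held 22.6% in library 1 and 59.4% in library 2 by the first quantifier. Counting coding transcripts alone, Psmb10 held 1.02 ± 0.320% of its pair with Psmb7 by the first quantifier and 1.12 ± 0.142% by the second. Because these transcripts are short, the same reads give a higher TPM than they would on the full-length transcript.

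**Figure D3:**
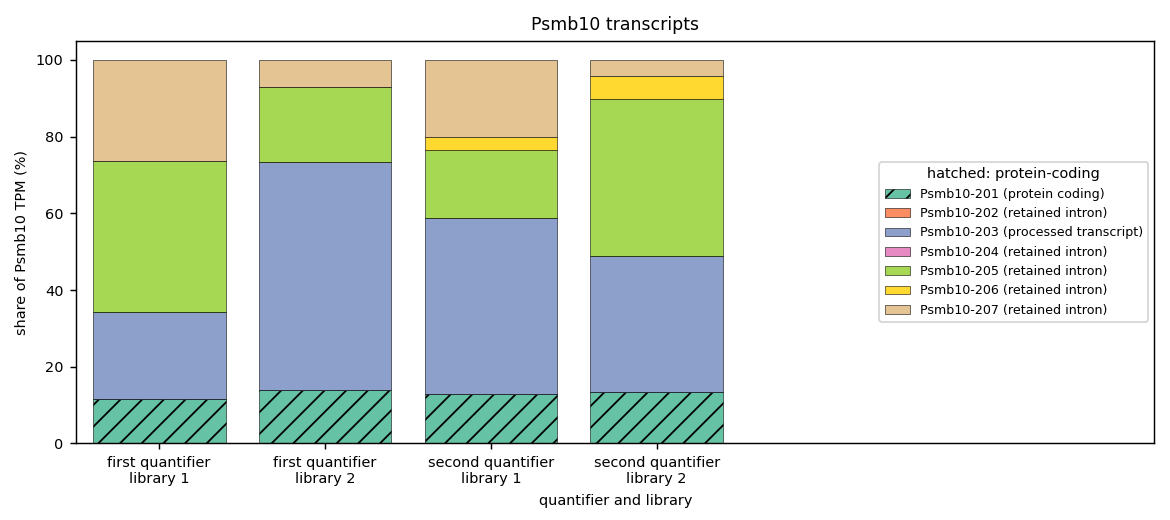
Share of Psmb10 TPM (percent) held by each annotated transcript, by quantifier and library, with the protein-coding transcript hatched. The coding transcript holds 11.6 to 14% in every column, and the short transcripts that start inside the gene hold most of the rest.

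Psmb8 also had much of its level in a non-coding transcript, but from few reads. The retained-intron transcript Psmb8-205 held 73.0% and 58.1% of Psmb8 TPM by the first quantifier and 53.2% and 10.8% by the second. With 36 and 44 counts behind the whole gene, the transcript shares are not settled. The tissue-specific core subunits were at the limit of detection. Psma8, the alpha subunit of the testis, had 0 and 1 counts, and Psmb11, the beta subunit of the thymus cortex, had 0 counts in both libraries. The 5 germ cell markers also stayed below 1 TPM, at 0.05 TPM in sum in library 1 and 0.23 in library 2.

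Psmb8 and Psmb9 lie beside the peptide transporter genes Tap1 and Tap2 in the major histocompatibility complex on chromosome 17, and the RefSeq promoter windows of a low and a high subunit of the same catalytic position are shown here. Each window runs from 250 bases before to 50 after the RefSeq start on GRCm38.p6, printed 5′ to 3′ on the gene's own strand. In the Psmb9 window the annotated start of Tap1, at 34187553 on the other strand, lies inside the 300 bases. Capitals mark ATTGG, which is CCAAT on the other strand, in Psmb9, and TGACNNNGC, the core of the antioxidant response element, in Psmb6. TGACNNNGC was in 13.3% of proteasome windows, beside 14.6% of the windows of detected protein-coding genes. Psmd9, with only 4.27 and 5.04 TPM, held it too, and any link between these motifs and level was not tested.
Psmb9, chr17:34187281-34187580, minus strand: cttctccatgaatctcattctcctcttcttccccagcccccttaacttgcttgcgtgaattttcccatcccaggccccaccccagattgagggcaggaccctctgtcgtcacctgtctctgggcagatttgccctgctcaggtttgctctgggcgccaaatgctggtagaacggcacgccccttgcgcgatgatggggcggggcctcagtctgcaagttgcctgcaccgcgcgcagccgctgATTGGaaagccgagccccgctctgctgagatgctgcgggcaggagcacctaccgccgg
Psmb6, chr11:70525107-70525406, plus strand: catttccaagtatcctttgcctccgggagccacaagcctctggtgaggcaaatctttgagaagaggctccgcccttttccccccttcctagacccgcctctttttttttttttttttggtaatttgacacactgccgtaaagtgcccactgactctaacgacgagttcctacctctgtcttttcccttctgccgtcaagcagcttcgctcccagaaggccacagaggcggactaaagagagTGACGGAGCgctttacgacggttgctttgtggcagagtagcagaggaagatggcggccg

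Genes of peptide loading and of the interferon response, which act with the immunoproteasome in antigen presentation, were mixed in level: 7 of 9 reached 1 TPM in both libraries. Tap1, which shares the window above, was at 0.40 and 0.52 TPM, and Nlrc5, the activator of class I genes, at 0.17 and 0.18. B2m, the light chain of class I molecules, was higher at 31.2 and 34.7 TPM, and H2-K1 had 15.1 and 17.8.

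The 6 ATPases of the regulatory particle had a median of 55.6 ± 4.53 TPM, with 2.67-fold between highest and lowest. Their SD of log2 TPM over the genes was 0.513 ± 0.0112, beside 0.642 ± 0.0467 for the non-ATPase subunits. The order turned with the second quantifier, which gave 0.586 ± 0.0147 for the ATPases and 0.519 ± 0.0306 for the non-ATPase subunits. Psmc3 led with 92.51 TPM in library 1 and 110.70 in library 2. Psmc6 was lowest with 34.04 and 42.12 TPM. The second quantifier gave Psmc6 46.45 and 56.45 TPM and put Psmc4 lowest, with 32.07 and 38.13. By the first, Psmc4 had 36.39 and 44.30 TPM. The other members lay close together, with 56.46 and 63.95 TPM for Psmc1, 48.82 and 53.54 for Psmc2 and 55.87 and 64.00 for Psmc5. All 6 were higher in library 2 on this scale, as were 41 of the 45 detected proteasome genes. The median of all genes was shifted the same way on deposited TPM, with a log2 ratio of -0.17 for library 1 over library 2.

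The 11 non-ATPase subunits had a median of 63.0 ± 3.80 TPM. Psmd2, a scaffold that docks ubiquitin shuttle proteins, was the highest at 110.05 and 112.89 TPM, the second of all 50 genes. Psmd4, a ubiquitin receptor, had 86.46 and 95.08 TPM. The lowest was Psmd14, the deubiquitinase that removes the ubiquitin chain before degradation, with 22.67 and 27.83 TPM. The receptor RNA was thus above the deubiquitinase RNA in both libraries (90.8 ± 6.10 TPM for Psmd4, 25.3 ± 3.65 TPM for Psmd14). The second quantifier gave means of 71.4 and 28.7 TPM. These SDs cover the spread between libraries only, not the error of comparing 1 gene with another.

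The subunits that build the lid and base around them lay between these ends. Psmd8 had 73.74 TPM in library 1 and 68.34 in library 2, Psmd7, the partner of the deubiquitinase, 63.33 and 69.27, and Psmd6 63.26 and 67.57. Psmd11 had 60.34 and 65.72 TPM, Psmd1, the other large scaffold, 47.89 and 55.94, and Psmd3 38.99 and 42.19. Psmd13 at 34.00 and 35.16 TPM and Psmd12 at 33.61 and 41.76 were the nearest to Psmd14. Taking the ATPases and the non-ATPases together, the 17 subunits had a median of 59.9 ± 5.71 TPM and a spread of 0.584 ± 0.0349, so they varied less among themselves than the 14 core genes.

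Assembly chaperones, which help to build the particles and are not part of the finished proteasome, formed a separate low level. All 7 were detected, with a median of 5.12 ± 0.933 TPM, below every subunit of the standard core and of the regulatory particle in both libraries. The base chaperones Psmd5 (5.86 and 6.68 TPM), Psmd9 (4.27 and 5.04) and Psmd10, also known as gankyrin (4.26 and 5.66), share the Psmd name with the subunits. Among the core chaperones, Psmg1 had 4.46 and 5.78 TPM and works with Psmg2, which had 7.39 and 10.88. Psmg3 at 3.46 and 3.68 TPM was the lowest detected chaperone, and its partner Psmg4 had 6.0 and 7.98. When the 3 base chaperones were counted with the regulatory particle, its median was 51.6 ± 4.52 TPM and its spread 1.36 ± 0.0411. Pomp, a maturation factor of the core that does not carry a Psm symbol, was an exception to the low level of chaperones, at 49.2 and 70.0 TPM.

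Of the alternative activators, Psme4, a large single-chain activator, was the highest with 52.65 and 66.87 TPM, at the level of the core. Psme1 and Psme2 form 1 activator ring together, are induced by interferon and lie close to each other on chromosome 14. Psme1 had 23.66 and 27.90 TPM and Psme2 20.44 and 20.01. Psme1 was thus slightly above Psme2 in both libraries, and both were far above Psmb8, another interferon-induced gene. Psme3, the nuclear relative that forms a ring by itself, had 22.19 and 27.57 TPM, and Psmf1, described as a proteasome inhibitor, 6.38 and 7.55. Psme2b, a copy of Psme2 on chromosome 11 that matches it at 99.37% of 794 bases, was assigned 4.14 and 8.60 expected counts, and because these sequences share reads its level is uncertain.

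Most proteasome genes were made up mainly of protein-coding transcripts. By the first quantifier, coding transcripts held a median of 97.9% of the TPM of the 45 detected proteasome genes, beside 93.8% over all detected nuclear protein-coding genes. Psmb10 and Psmb8 had less than 50% in coding transcripts in both libraries, 2 of 45, beside 5.63% of all detected genes. By the second quantifier the genes under that limit were Psma3, Psmb10, Psmb4 and Psmc6, beside 6.92% of all detected genes. Psmb10 alone was under the limit by both quantifiers.

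Psma3 showed how far the quantifiers could part on transcripts. The second quantifier gave 50.2% and 51.9% of Psma3 to Psma3-201, annotated as a target of nonsense-mediated decay, and the first gave it 10.8% and 17.7%. The coding transcript Psma3-204 held 49.2% and 44.5% by the first quantifier and close to 0 by the second. Psmc6 had a coding share of 35.4% and 34.0% by the second quantifier against 70.3% and 61.8% by the first, and Psmb4 42% and 48.1% against 60.3% and 67.9%. The transcript mix of these genes is not settled by the tables.

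A single transcript held at least 50% of the gene's TPM in both libraries in 37 of the 45 detected genes by the second quantifier, against 62.6% of all detected genes. The 8 genes with no such transcript were Psmb10, Psmb4, Psmb8, Psmc6, Psmd13, Psmd9, Psme1 and Psme3. At the level of whole genes the quantifiers were close. The median absolute log2 difference was 0.12 over 45 genes, and none of the 45 differed by more than 1.5-fold.

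**Figure D4:**
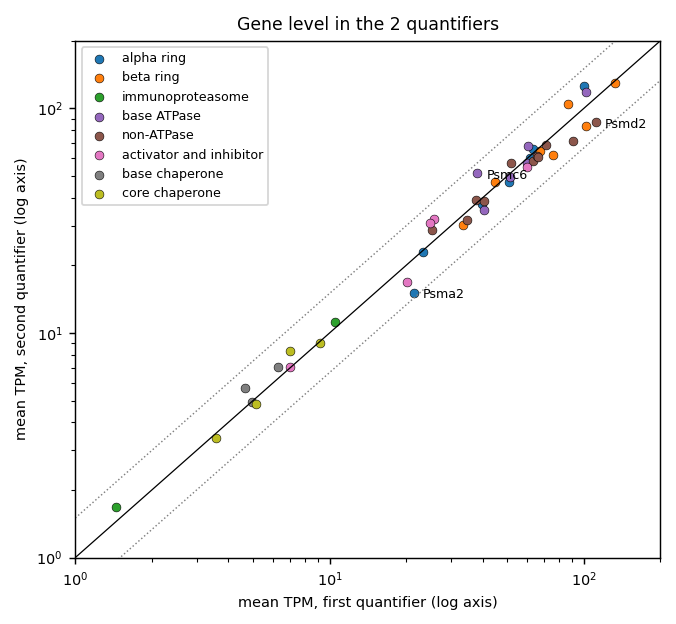
Mean TPM of the 45 detected proteasome genes by the second quantifier against the first, both on log axes, with the line of equal values and dotted lines at 1.5-fold. All points lie between the dotted lines, and Psmc6 (1.35-fold higher by the second quantifier) and Psma2 (0.703 of the first) lie farthest out.

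Between the libraries, the proteasome genes differed little. For ratios, expected counts were scaled with the trimmed mean of M values (TMM), and the log2 ratio of library 1 over library 2 had a median of 0.016 over the 45 detected genes, beside -0.0075 over 11072 genes. The genes fell on both sides of the median of all genes, 24 above and 21 below. The median absolute log2 ratio was 0.062 for proteasome genes and 0.12 for all genes, which include many with fewer counts. Among genes with a mean of at least 5 TPM and at least 100 counts in sum, 0 of 41 proteasome genes had an absolute log2 ratio of at least 1, where 0.494% of 6685 genes did. These libraries are 1 on each side of the ratio, so it has no replicate check and the intervals cover counting error only.

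At the lower limit of 0.25 on the log2 scale, 1 of the 41 was higher in library 1, where 6.99% of all genes were. This was the lid subunit Psmd8, with 2849 and 2305 counts and a ratio of 0.27 (95% counting interval 0.19 to 0.35). Lower in library 1 were 3 of the 41, where 6.51% of all genes were. The chaperone Psmg2 had 214 and 274 counts and a ratio of -0.40 (-0.66 to -0.13). For its relative Psmg4, with 77 and 90 counts, the ratio was -0.26 (-0.72 to 0.19), and for Psmb10, with 138 and 163 counts, it was -0.28 (-0.62 to 0.056). Only the intervals of Psmd8 and Psmg2 among these 4 kept clear of 0. Psmb8, which is outside these limits on TPM and counts, had a ratio of -0.33 (-1.01 to 0.34).

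**Figure D5:**
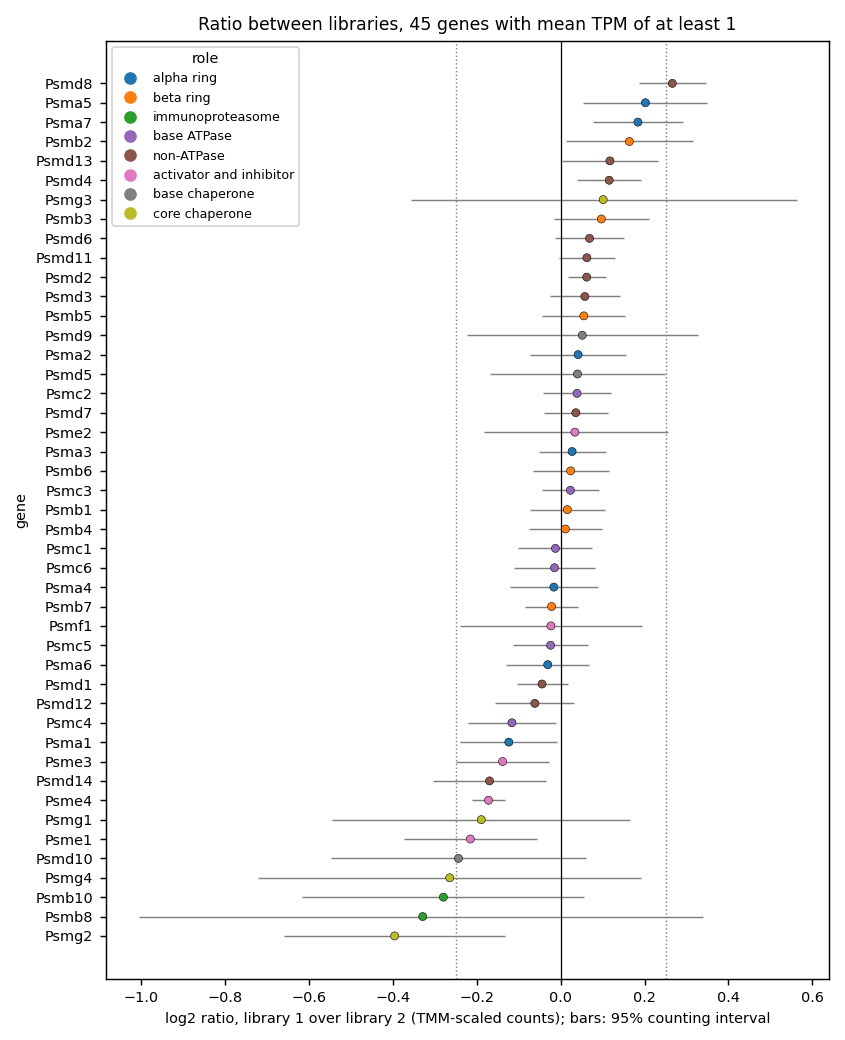
Log2 ratio of library 1 over library 2 of TMM-scaled expected counts for the 45 detected proteasome genes, ordered by ratio and coloured by role, with bars for the 95% counting interval and dotted lines at 0.25 either side of 0. Psmd8 lies highest at 0.27 and Psmg2 lowest at -0.40, and 26 of the 45 lie within 0.1 of 0.

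The genes that feed the proteasome were read beside it. Of 45 detected genes on 6 pathway lists, 2 were higher in library 1 by at least 0.25 on the log2 scale and 3 were lower. Among the 6685 genes with a mean of at least 5 TPM and at least 100 counts, 6.99% were higher and 6.51% lower. The lists used a looser filter, a mean of at least 1 TPM, and their counts were not tested against these shares. The 2 higher ones were ubiquitin ligase genes of muscle atrophy. Trim63 had 254 and 138 TPM in libraries 1 and 2, which gave a log2 ratio of 1.04, and Fbxo32 had 149 and 103 TPM, with a ratio of 0.70. The other ligases of that list did not follow, with ratios of -0.035 for Fbxo30 and 0.13 for Fbxo21. The lower ones were Nfya at -0.36, Nfyb at -0.26 and Uba6, a ubiquitin-activating enzyme, at -0.27. The proteasome genes had a median of 0.016 in the same pair of libraries. Macrophage markers had a median ratio of 0.46 over 7 genes, and their part in any ratio here was not tested.

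Of 12 listed names of partner proteins of the proteasome, 10 matched the annotation, and all 10 were detected with a median log2 ratio of -0.013. They ran from Uchl5, a deubiquitinase of the base, with 9.36 and 10.77 TPM, up to the highest subunit levels. Ecpas, which binds core and regulatory particle together, had 95.3 and 120.8 TPM, and Zfand5, an activator known from muscle atrophy in mice, 110.1 and 100.2. Adrm1, a ubiquitin receptor of the base, had 47.7 and 53.4 TPM. Of the shuttle factors and the segregase, 9 of 9 were detected, among them Sqstm1 with 191 and 202 TPM and Vcp with 95.7 and 121. The E1 and E2 list had 8 of 8 detected, with Ube2b, an E2 enzyme, at 250 and 267 TPM.

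Nfe2l1, the transcription factor that raises proteasome genes when the protease is inhibited, was abundant at 184 and 193 TPM, above every proteasome gene. Its relative Nfe2l2, of the oxidative stress response, had 13.97 and 14.14 TPM, and Ddi2, the protease that activates Nfe2l1, had 20.4 and 19.7. All 7 genes of the transcription factor list were detected. Nfe2l1 and Nfe2l2 read the antioxidant response element, so the RefSeq promoter windows were searched for its core TGACNNNGC on both strands. There were 45 windows for 42 of the 50 genes. The motif was present in 6 windows (13.3%), against 14.6% of the windows of detected protein-coding genes and 12.4% of all windows. The 4 matches within 60 bases of the start are shown, with the motif in capitals on either strand and up to 15 bases on each side. The fourth of these, in Psmb6, is at -9 from the start in the window printed above.
Psmd9, chr5:123228144-123228182, plus strand: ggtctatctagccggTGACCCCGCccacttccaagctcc
Psme4, chr11:30771753-30771791, plus strand: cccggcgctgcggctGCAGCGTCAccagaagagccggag
Psmb5, chr14:54618019-54618057, minus strand: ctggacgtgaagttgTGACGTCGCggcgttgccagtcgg

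The looser form TGANNNNGC, which contains every match of the first, was in 26 windows (57.8%), against 43.0% of windows of detected genes. TGACTCAGC, a single sequence among those that fit TGACNNNGC, was in none of the 45 windows, where 0.429% of the windows of detected genes held it. CCAAT, the element read by the NF-Y factors, was in 15 windows (33.3%) beside 37.4% of the windows of detected genes. The share of proteasome windows with the core motif was thus close to the background.

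A motif chosen after the windows had been looked at, CGGAAGT, the core read by ETS-family factors, was in 15 windows of 14 genes. That is 33.3% of proteasome windows, against 14.1% of the windows of detected genes and 6.42% of all windows. Neither its presence nor its share says that a factor binds there. GGAAGTG, which overlaps it, was in 8 windows (17.8%) against 14.6%. For the 6 highest genes by TPM that held it, the match nearest the start is shown, with the motif in capitals as it reads on the gene's own strand and Psma6 taken at the later of its RefSeq starts.
Psmb4, chr3:94886942-94886978, minus strand: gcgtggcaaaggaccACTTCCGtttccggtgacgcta
Psmd8, chr7:29180669-29180705, minus strand: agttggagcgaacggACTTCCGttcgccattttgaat
Psmd6, chr14:14120968-14121004, minus strand: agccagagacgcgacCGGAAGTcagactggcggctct
Psma6, chr12:55398826-55398862, plus strand: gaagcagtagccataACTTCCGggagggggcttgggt
Psmc1, chr12:100110158-100110194, plus strand: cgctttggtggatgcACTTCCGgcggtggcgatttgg
Psme4, chr11:30771708-30771744, plus strand: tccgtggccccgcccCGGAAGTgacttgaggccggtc

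For the interferon-linked members, a form read by interferon regulatory factors, a pair of GAAA blocks with any 2 bases between them, was in 5 windows (11.1%), against 2.66% of the windows of detected genes, and TTCNNNGAA, the form read by STAT factors, in 3 (6.67%) against 6.58%. Both forms were added after values had been seen. Psme1 held the first and Psmb8 the second, shown in capitals, and the windows of Psmb9 and Psme2 held neither. The other genes with the first were Psmb3, Psmd4, Psmd9 and Psmg4, and those with the second were Psmd2 and Psmg1. These other genes are not among the interferon-induced subunits.
Psme1, chr14:55578488-55578527, plus strand: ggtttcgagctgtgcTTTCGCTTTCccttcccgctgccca
Psmb8, chr17:34198083-34198121, plus strand: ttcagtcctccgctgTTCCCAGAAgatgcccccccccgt

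Several proteasome genes have near-identical copies, and their levels depend on how reads were shared. Of the 50 genes, 18 had another gene at 90% identity or more over at least 200 bases, and 29 of the 33 such genes were pseudogenes. The counts of genes in this paragraph were taken for the proteasome genes only and have no share over all genes beside them. The summed counts of the copies of Psma5 came to 10.6% of the size of its own count in library 1 and 14.9% in library 2, all at Gm8394 (98.6% identical over 952 bases), and those of Psmb3 came to 7.42% and 8.95%. For Psmb5 the copies' counts were 6.74% and 8.58% of the size of the gene's own count. For Psma3 they were 4.78% and 5.50%, at a pseudogene that matched 685 bases at 100% identity. For Psme2b the order was the other way round, since its near-identical gene Psme2 had 351.86 and 334.40 counts beside 4.14 and 8.60 of its own. Expected counts were whole in both libraries, as they are when no reads are shared, for 40 of the 50 genes. On the same strand, exons of 4 of the 50 overlapped those of another gene. Psmb5 shared 109 bases with Mir686, which was listed at 13.9 and 40.0 TPM, while Gm21972 (over Psmd1) and Gm26938 (over Psmg3) were at 0 and 9930111J21Rik1 (over Psme2b) was at 0.19 and 0.31 TPM.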

How the data were processed

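Total RNA was sequenced from 2 gastrocnemius libraries of 1 group. Software names are not given in the sources used here. Per the deposited read-me, the mm10 genome and the GENCODE M21 annotation were used, for the first quantifier from an alignment to transcripts and for the second from the reads directly. Expected counts were deposited by the authors per gene and transcript, and share out reads that fit several. TPM were deposited by the authors relative to every entry of a table, with spike-ins among them, so 1 abundant RNA moves the TPM of all genes. Per the labels, a directional library kit was used. Reads of CAST alleles were assigned against mm10, and the effect of this was not tested.

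Levels use deposited TPM; a gene was detected at 1 TPM in both libraries. Ratios use expected counts rounded to whole numbers, without spike-ins, scaled by TMM in edgeR 4.0.16 (R 4.3.3), with exact binomial 95% intervals. They take library 1 over library 2 and have no p-value. DESeq2 1.42.0 size factors, total counts, spike-ins, deposited TPM and the second quantifier were alternatives. The scaling and the motif search were tested on simulated data. Near-identical genes were found with BLAST 2.17.0. Promoter windows are RefSeq's on GRCm38.p6. The second quantifier lacks 86 genes on scaffolds. Of the 8 motifs searched, 5 were added after values had been seen. The members and lists were chosen with earlier results of these data known. Every gene of the rule is named, and those at the ends of each role, the immunoproteasome pairs and those apart by 0.25 on the log2 scale are given in full. Paaf1 was not analysed here, and some listed genes are not reported here.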

Additional observations from a re-analysis of the deposited data

How the results depend on the processing

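In all, 70 alternative values of 17 results were computed, of which 45 stayed within their limit, 23 moved and 2 changed sign. The limit was the SD between libraries for levels, spreads and shares, and 1.5 times for counts. For the median ratio it was the SD of the ratio over proteasome genes. With 2 libraries, a mean taken without 1 of them always lies within the SD. Those values of levels, spreads and shares could therefore not have moved, and they say nothing about stability. The median log2 ratio between libraries was -0.189 on deposited TPM, where all genes had -0.172, and -0.00077 with no filter on low values; under the other scalings it lay between 0.011 and 0.086. The share of nuclear protein-coding TPM was 0.491% by the second quantifier, and the proteasome genes held 0.212% of all gene TPM. The spread was 0.902 for the core and 1.28 for the regulatory particle by the second quantifier. Without the 3 base chaperones, an alternative added after seeing the data, the regulatory particle had a median of 59.9 TPM and a spread of 0.584. The Psmb8 share was 2.62% by the second quantifier, 2.33% by posterior mean TPM, 2.34% by counts and 0.667% by coding transcripts of the first quantifier. In the same order the Psmb9 share was 1.15%, 1.24%, 1.03% and 0.483%. By coding transcripts of the second quantifier the Psmb8 share was 1.865% and the Psmb9 share 0.851%, both within the spread between libraries. The Psmb10 share was 3.65% by counts, 1.02% by coding transcripts of the first quantifier and 1.12% by those of the second. The coding-transcript alternatives were also added after seeing the data. The limit of 0.25 gave 4 genes apart, a main transcript of at least 80% was found in 22 genes, and the looser motif TGANNNNGC was found in 26 windows. The cause of these shifts was not tested.

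Leaving out each library in turn gave 45 detected genes in both cases, a share of 0.496% to 0.510%, core medians of 59.9 to 64.6 TPM, regulatory particle medians of 48.4 to 54.7 TPM, core spreads of 0.778 to 0.803 and regulatory particle spreads of 1.33 to 1.39. Shares were 1.58% to 2.14% for Psmb8, 0.770% to 0.870% for Psmb9 and 6.41% to 8.23% for Psmb10. No paired analysis was possible because there is 1 group. Depth limits the genes with few counts, among them Psmb8 with 36 and 44 counts and Psmb9 with 17 and 24.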
